A study of Mus musculus with 8 samples.

Results

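The collagen genes outside cartilage were the genes whose platform symbol had the form Col, number, a, number, leaving out the 8 collagens typical of cartilage (Col2a1, Col9a1, Col9a2, Col9a3, Col10a1, Col11a1, Col11a2 and Col27a1). They were read by 70 of the 45281 probes of the array and stood for 33 of the 19057 genes with a symbol: 7 fibrillar, 8 basement membrane, 4 fibril-associated (FACIT) and 14 other collagens. Levels were compared between 4 wildtype and 4 Bapx1 null arrays of hindlimb cells from E12.5 mouse embryos, strain C57BL/6J;129, sorted for EGFP made from the Bapx1 locus. Bapx1 (Nkx3-2) encodes a homeobox transcription factor. In the wildtype embryos EGFP followed an internal ribosome entry site in the 3′ UTR of an otherwise intact Bapx1 allele, and the study writes that line as heterozygous for the reporter. In the null embryos, homozygous for their allele, an EGFP cassette was placed directly behind the start codon of Bapx1 with a short piece of the gene removed, and the rest of the gene was left in place. The sort therefore relied on different reporter alleles in the genotypes, and whether it gathered the same cells was not tested. The methods call the arrays biological replicates, but neither they nor the labels say how many embryos stand behind an array, so the p-values reflect variation among these 8 arrays, which may be partly technical.

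Collagens are secreted or membrane-bound proteins in which chains wind around each other into trimers. Fibrillar collagens build the rope-like fibrils of mesenchyme, tendon, skin and bone, and FACIT collagens sit on the surface of such fibrils. Basement membrane collagens form the sheets under epithelia and around vessels, muscle and nerve. The other members include the beaded filaments of type VI, the anchoring fibrils of type VII, the lattices of type VIII and collagens that span the cell membrane. In the limb bud, mesenchyme lays down fibrillar and type VI collagens around the cartilage condensations.

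Sequence around the start of transcription was available from RefSeq (GRCm38.p6, 250 bases before to 50 after the start) for 27 of the 33 genes, and not for Col1a1, Col4a3, Col5a2, Col14a1, Col22a1 and Col26a1. Both forms of the binding motif that the study gives for Bapx1, TGAGTG and TAAGTG, were searched on both strands. The study mapped Bapx1 binding in the vertebral column, not in hindlimb cells, and reports most peaks as distal to transcription starts. Whether Bapx1 binds the windows searched here in hindlimb cells was not tested. The lines below show the motif in capitals, with its neighbouring bases, for the 5 members measured on these arrays whose window held it.
Col23a1 (chr11:51289737-51289766, + strand): aggctcgaacagTGAGTGcctcaacctcag
Col18a1 (chr10:77166701-77166730, - strand, motif on the opposite strand): ggacgagactgcCACTCAgagttttagaag
Col4a5 (chrX:141475422-141475451, + strand): tttgtaggacgtTGAGTGaggaaagtttgc
Col6a1 (chr10:76726245-76726274, - strand): gacagttgactcTGAGTGggtaaacatccc
Col7a1 (chr9:108953446-108953475, + strand): tgaccttgccctTAAGTGcgtcatatctta
One or the other form lay in 7 of the 29 windows of the members (24.1%) and in 23.9% of all 32851 windows. The remaining windows with the motif belonged to Col4a6 and Col28a1, and Col7a1 held both forms.

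Col4a1 and Col4a2 lie on opposite strands, and their RefSeq starts are 21 bases apart. The Col4a1 start, on the - strand, has the higher coordinate, so the transcripts overlap at their 5′ ends and both contain the bases between the starts. The stretch between these starts is shown because the chains from it make up 1 trimer and are compared below, with the 2 start bases in capitals.
Col4a1 and Col4a2 (chr8:11312805-11312826, + strand): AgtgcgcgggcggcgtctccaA
Col4a5 and Col4a6 also run in opposite directions, with starts 1343 bases apart.

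A probe counted as detected on an array at a detection p under 0.05, and 18375 to 20256 probes per array did. The 19568 probes detected on at least 4 arrays were tested with limma, and a probe was called changed at a Benjamini-Hochberg adjusted p under 0.05. In all 149 probes were called (0.761%), 63 higher (0.322%) and 86 lower (0.439%) in null cells. The split moved with scaling: cyclic loess gave 89 higher and 79 lower calls, and scaling by median absolute deviation 8 and 2. The limb mesenchyme markers set out for the labelled tissue were detected on at least 2 arrays of each genotype for 7 of 8 measured genes, with Msx2 on no array.

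The Bapx1 transcript was detected only on the arrays labelled null. Its probes read 4.67, 4.54, 4.45 and 4.41, and 4.38, 4.50, 4.46 and 4.37, on the arrays labelled wildtype, none of them detected. On the arrays labelled null they read 9.01, 8.76, 7.97 and 8.19, and 8.71, 8.22, 7.71 and 7.85, all detected. By limma both were called higher on the null arrays, by at least 10.4-fold and 8.07-fold (adjusted p = 9.5e-05 for each), where a bound sets the null mean against the lowest signal that counted as detected. Both probes passed the detection filter only through the null arrays, so their wildtype level is known only as not above background. For the vertebral column, the study's text reports Bapx1 as upregulated in null embryos and proposes possible auto-regulation. The caption of its in situ figure marks a rostral loss of expression there. Where the probes lie relative to the inserted cassette and the removed piece was not tested, so they do not settle the labels. The terms wildtype and null below mean the arrays labelled so, and every direction given rests on those labels.

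Markers of blood cells moved with genotype. The summed level of the platelet and megakaryocyte markers (normalized intensity above the offset, arbitrary units) was 5800 to 6856 on the wildtype and 273 to 1334 on the null arrays, and 8 of its 9 tested genes were called lower. The red cell markers summed to 2289 to 4264 on wildtype and 5269 to 41194 on null arrays, with 1 of 7 called higher. No gene of the limb mesenchyme, endothelial, surface ectoderm, skeletal muscle, tendon, osteoblast, macrophage or nerve markers was called by limma. An unadjusted p under 0.05 was found for 4 of 7 limb mesenchyme genes, 2 of 5 tendon genes and at most 1 in each other of these lists. The share over all tested probes was 11.3%. Those 4 limb mesenchyme genes were above 0 (Msx1 at 1.43, Prrx1 1.18, Twist2 0.77 and Pitx1 0.59), and the 3 others were below 0. The tendon genes were Egr1 at 1.10 and Scx at -0.53. The part of all these markers in the collagen values was not tested. Fewer cells of a type and less RNA per cell cannot be told apart in these bulk samples.

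Of the 70 collagen probes, 32 were detected on all 8 arrays, 28 on none and 9 on 1 to 3 arrays, and 33 probes of 22 genes were tested. Among these 33 probes, 1 was called, for the membrane-spanning collagen Col23a1, lower in null cells. None was called higher. At an unadjusted p under 0.05 there were 7 collagen probes (21.2%), 3 higher and 4 lower, where the share over all tested probes was 11.3%. The groups did not overlap for 3 of the 33 probes (9.09%), the probe of Col23a1 and both probes of Col8a1, against 6.29% of all tested probes. By gene, 1 of 22 was called, against 0.947% of all 10772 genes. The difference, null minus wildtype, was above 0 for 8 genes and below 0 for 14, with a median of -0.09 on the log2 scale against -0.04 over all genes. The median SE of a collagen gene was 0.168, which limits what 4 against 4 arrays could show.

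**Figure D1:**
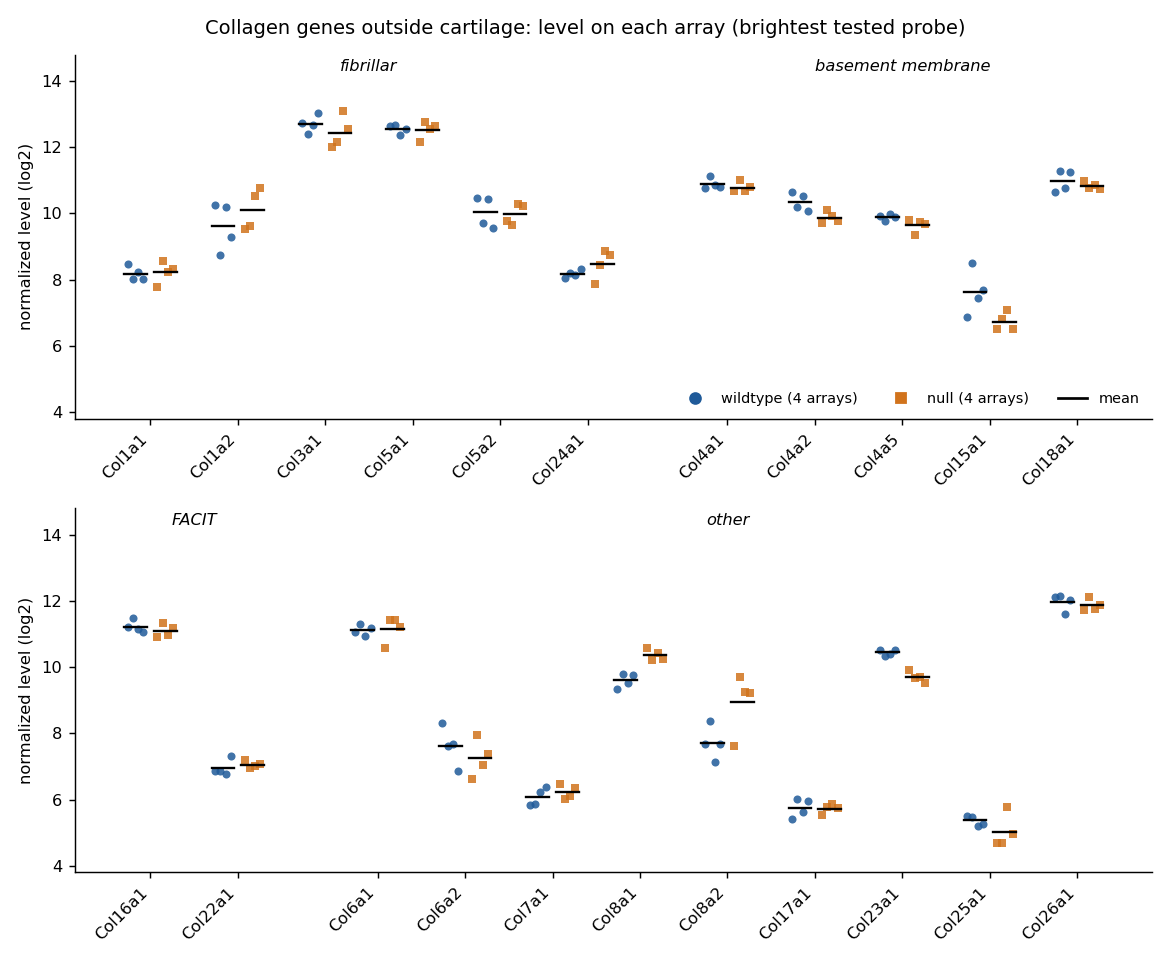
Normalized log2 level of each tested collagen gene on each array, read at its brightest tested probe, for wildtype (circles) and null (squares) arrays, with the group mean as a bar. Genes are grouped by class, and the groups stand apart with no overlap for Col8a1 (higher in null) and Col23a1 (lower in null).

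Among the fibrillar collagens, no gene was called by limma, and none had an unadjusted p under 0.05. The 6 tested genes gave differences from -0.27 to 0.49, with a median of 0.00, 3 above and 3 below 0. Col3a1, the partner of type I collagen in soft connective tissue, had the brightest probe of the class. Its log2 level was 12.75, 12.40, 12.67 and 13.04 on wildtype replicates 1 to 4 and 12.004, 12.15, 13.08 and 12.55 on null replicates 1 to 4. Null replicate 3 was the highest of all 8 arrays and null replicates 1 and 2 the lowest. The difference was -0.27 ± 0.24 (SE, adjusted p = 0.719).

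Col1a2 encodes the second chain of type I collagen, the main fibril protein of bone, skin and tendon. It measured 10.26, 8.76, 10.19 and 9.30 on the wildtype and 9.54, 9.63, 10.52 and 10.77 on the null arrays. Wildtype arrays alone spanned more than the difference between the genotypes, which was 0.49 ± 0.39 (adjusted p = 0.688). The SD within a genotype was 0.676, larger than for 97.1% of tested probes. Col1a1, the major chain, differed by 0.04 ± 0.18. The sign for Col1a1 turned in the deposited log2 table (-0.061) and with array weights (-0.019).

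Col24a1, a fibrillar collagen of developing bone in mice, measured 8.05, 8.20, 8.15 and 8.33 on the wildtype and 7.88, 8.45, 8.87 and 8.75 on the null arrays. Null replicates 2, 3 and 4 exceeded every wildtype array and null replicate 1 lay below them all. The difference was 0.30 ± 0.21 (adjusted p = 0.625), and its dimmer probe gave 0.05 ± 0.22. Col5a1 and Col5a2 encode chains of type V collagen, which starts fibrils and sets their width. Col5a1 differed by -0.03 ± 0.15, and the 3 probes of Col5a2 by -0.07, 0.04 and 0.11. Col5a3, a further type V chain, was detected on no array.

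The basement membrane collagens gave differences below 0 for all 5 tested genes, with a median of -0.25 against -0.04 over all genes. None was called by limma, and 2 had an unadjusted p under 0.05, where the share over all tested probes was 11.3%. Col15a1, made in the basement membrane zone of vessels and muscle, had the widest difference. Its log2 level was 6.88, 8.51, 7.46 and 7.70 on wildtype and 6.52, 6.80, 7.09 and 6.52 on null arrays. Wildtype replicate 1 lay within the null range and wildtype replicate 2 far above it, and the difference was -0.90 ± 0.31 (1.87-fold lower, adjusted p = 0.309). Over the tests with 1 array left out it ran from -1.15 to -0.62, with adjusted p from 0.168 to 0.541.

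Endothelial markers were high on the same array: their summed level was 2977 on wildtype replicate 2, 900 to 1609 on the other wildtype arrays and 788 to 1491 on the null arrays. Of these markers 7 of 8 tested genes were below 0 and none was called, with Cdh5 at -0.54 and Pecam1 at -0.51, and Kdr was detected on no array. Their part in the values of Col15a1 was not tested.

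Col4a1 and Col4a2 encode the chains of the trimer found in nearly every basement membrane. Col4a2 measured 10.64, 10.18, 10.52 and 10.08 on the wildtype and 9.71, 10.12, 9.93 and 9.76 on the null arrays. The groups overlapped only through wildtype replicate 4 and null replicate 2, and the difference was -0.48 ± 0.16 (1.40-fold lower, adjusted p = 0.298). For Col4a1 the difference was -0.11 ± 0.13 (adjusted p = 0.805), and it turned to 0.048 under scaling by median absolute deviation.

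Col4a5, a chain of the type IV trimers of specialised basement membranes, measured 9.92, 9.79, 9.99 and 9.89 on wildtype and 9.82, 9.34, 9.74 and 9.69 on null arrays. Null replicate 1 alone reached the wildtype range. Its probes gave -0.25 ± 0.13 (adjusted p = 0.513) and -0.34 ± 0.17 (adjusted p = 0.504). Col18a1, whose C-terminal part is released as endostatin, had the brightest probe of the class. That probe read 10.64, 11.30, 10.75 and 11.24 on the wildtype and 10.995, 10.78, 10.85 and 10.73 on the null arrays, with null values inside the wildtype range. The difference was -0.15 ± 0.17 (adjusted p = 0.799). The dimmer probe of Col18a1 gave -0.40 ± 0.13 (adjusted p = 0.274), with null replicate 2 reaching the lowest wildtype array.

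Further basement membrane members were near background. Col4a3, a kidney and lung chain, was detected on no array. Its partner Col4a4 was detected on 1 wildtype and 2 null arrays. Col4a6, the neighbour and trimer partner of Col4a5, was detected on 1 array of each genotype.

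Of the FACIT members, Col16a1 and Col22a1 were tested and neither was called by limma, nor had an unadjusted p under 0.05. Col16a1, the brighter of them, measured 11.21, 11.48, 11.15 and 11.06 on wildtype and 10.91, 11.33, 10.97 and 11.19 on null arrays. The ranges overlapped and the difference was -0.12 ± 0.14 (adjusted p = 0.795). Col22a1, a collagen of tissue junctions such as that of muscle and tendon, measured 6.88, 6.87, 6.78 and 7.30 on wildtype and 7.19, 6.96, 7.01 and 7.07 on null arrays. All null values lay between the wildtype replicates, and the difference was 0.10 ± 0.14 (adjusted p = 0.843). Scaling by median absolute deviation turned the sign of Col16a1 (0.066).

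The other FACIT genes on the array were not tested. A probe of Col14a1, which binds fibrils in skin and tendon, was detected on 3 null and 0 wildtype arrays, with a level of 4.75, 5.14, 5.79 and 5.40 on the null and 4.92, 4.97, 5.07 and 4.98 on the wildtype arrays. Null replicate 1, not detected, lay below every wildtype array, so the groups overlapped. The means, with undetected arrays as read, were 5.27 on the null and 4.98 on the wildtype arrays, which sets no bound on the fold. The other Col14a1 probe was detected on 2 null and 0 wildtype arrays and read 4.89 ± 0.30 in null and 4.90 ± 0.14 in wildtype cells (SD, n = 4). Col19a1 was detected on 1 null array. Col12a1, Col20a1, Col21a1 and the type VI gene Col6a3 had no probe in the platform table used here and were not analysed here.

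**Figure D2:**
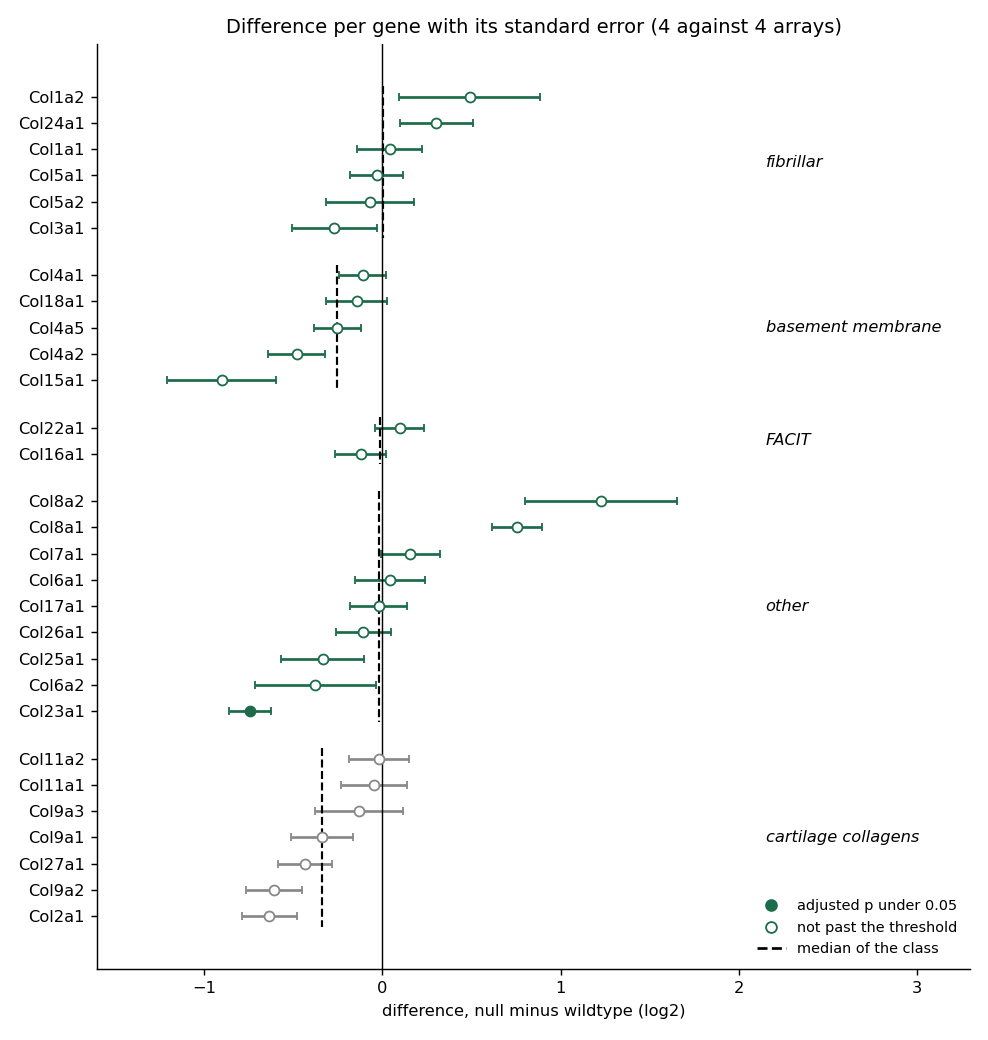
Log2 difference of each tested gene, null minus wildtype, with its standard error (4 against 4 arrays), by class, with the 7 tested cartilage collagens in grey. The filled point is Col23a1 at -0.74, open points did not pass the adjusted threshold, and dashed lines mark class medians from -0.25 (basement membrane) to 0.00 (fibrillar), with -0.34 for the cartilage collagens.

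Beside Col15a1, the members furthest from 0 were Col8a2, Col8a1 and Col23a1, all in the class of other collagens. Of the 9 tested genes of this class 4 were above and 5 below 0, with a median of -0.02. Col23a1 fell 1.67-fold in null cells, and its log2 level was 10.50, 10.34, 10.41 and 10.53 on wildtype and 9.91, 9.68, 9.69 and 9.53 on null arrays. Every null array lay below every wildtype array. The difference was -0.74 ± 0.12 (adjusted p = 0.0259). The dimmer probe of Col23a1 read 9.12, 9.52, 9.02 and 9.64 on wildtype and 9.32, 9.04, 8.52 and 8.42 on null arrays, with overlap, and gave -0.50 ± 0.23 (adjusted p = 0.459). The bright probe stayed below 0 in all 18 alternatives with a test, from -0.86 to -0.65. Its call was lost under 3 of 10 other settings and when any array but wildtype replicate 2 or null replicate 1 was left out (adjusted p from 0.0255 to 0.100 over the arrays left out).

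Col8a1 and Col8a2 encode the chains of type VIII collagen, which forms lattices in basement membranes of the eye and around vessels. The brightest probe of Col8a1 read 9.36, 9.79, 9.54 and 9.76 on the wildtype and 10.57, 10.20, 10.42 and 10.26 on the null arrays. All null arrays were above all wildtype arrays, by a difference of 0.75 ± 0.14 (1.69-fold), at an adjusted p = 0.0526 just outside the threshold. The dimmer probe of Col8a1 read 7.29, 7.23, 6.75 and 7.50 on wildtype and 8.32, 8.54, 7.84 and 7.87 on null arrays, again without overlap. It gave 0.95 ± 0.21 (1.93-fold, adjusted p = 0.101). The brightest probe passed the threshold with cyclic loess (adjusted p = 0.0418), with an offset of 50 (0.0350) and with array weights (0.0194), out of 10 other settings, and in none of the 8 fits with an array left out (adjusted p from 0.0680 to 0.182). Over those 10 settings its adjusted p ran from 0.0194 to 0.999998.

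Col8a2 measured 7.67, 8.38, 7.14 and 7.68 on the wildtype and 7.63, 9.69, 9.24 and 9.21 on the null arrays. Null replicates 2, 3 and 4 lay above all wildtype arrays, and null replicate 1 lay among them. The difference was 1.23 ± 0.43 (2.34-fold, adjusted p = 0.322). Without null replicate 1 it was 1.67 with an adjusted p = 0.0435, the only array whose removal brought Col8a2 past the threshold, and without each of the other arrays it stayed above 0 (0.98 at the lowest). A dimmer probe of Col8a2 was detected on 2 null and 0 wildtype arrays.

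**Figure D3:**
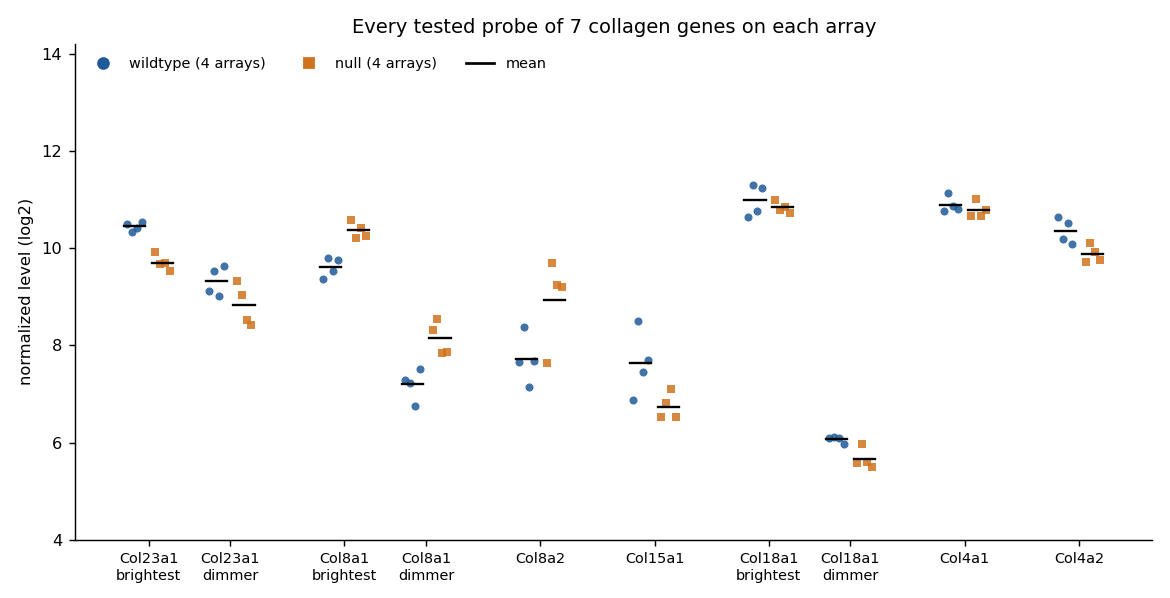
Normalized log2 level on each array for every tested probe of 7 genes, wildtype as circles and null as squares, with the group mean as a bar. Both probes of Col8a1 and the brightest probe of Col23a1 separate the genotypes, while null replicate 1 of Col8a2 (7.63) sits among the wildtype arrays.

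Col26a1, a small collagen with an EMI domain, had the brightest probe of this class. It measured 12.12, 12.15, 11.60 and 12.04 on wildtype and 11.73, 12.11, 11.75 and 11.88 on null arrays. The null values fell inside the wildtype range, and its probes both gave -0.11 (SE 0.15 and 0.20). Col6a1 and Col6a2 encode chains of the type VI filaments around mesenchymal cells. The probes of Col6a1 gave 0.04 ± 0.20 and 0.03 ± 0.28, and those of Col6a2 gave -0.38 ± 0.34 and -0.01 ± 0.16, so the probes of Col6a2 disagreed.

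Of the collagens tied to epithelia, Col7a1, the anchoring fibril chain of skin, differed by 0.16 ± 0.16. The probes of Col17a1, a membrane collagen of hemidesmosomes, gave -0.02 and 0.00, each with an SE of 0.16. Surface ectoderm markers summed to 482 to 1139 on wildtype and 638 to 900 on null arrays, with 0 of 8 tested genes called and Krt5 detected on no array. The membrane collagen Col25a1, needed in mice for motor nerves to reach muscle, was detected on all 4 wildtype arrays and 1 null array. It measured 5.51, 5.48, 5.22 and 5.27 on wildtype and 4.69, 4.70, 5.77 and 4.97 on null arrays, with null replicate 3 the highest of all 8. With undetected arrays as read, the difference was -0.34 ± 0.23 (adjusted p = 0.633). Col25a1 passed the detection filter through the wildtype arrays, and its level on the undetected null arrays is known only as not above background.

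The rest of this class was at or near background. Col6a4, Col6a6 and Col28a1 were detected on no array, and Col6a5 on 1 null array. Col13a1, a membrane collagen of the neuromuscular junction, was detected on 3 null and 0 wildtype arrays with one of its probes. That probe read 4.76, 5.06, 5.29 and 5.41 on null and 4.98, 4.53, 5.08 and 4.94 on wildtype arrays. Null replicates 1 and 2 fell within the wildtype range. The means, with undetected arrays as read, were 5.13 on the null and 4.88 on the wildtype arrays, which sets no bound on the fold. No test was made for these genes.

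Chains of the same trimer, or of the same fibril, were compared within each array to ask whether they moved unequally between the genotypes. The 6 pairs with a tested probe for both chains entered an exact permutation test (two-sided), which cannot give a p under 0.0286. None reached an exact p below 0.114 (adjusted over the pairs, 0.471 to 0.943). For Col4a1 minus Col4a2 the log2 difference between the chains was 0.13, 0.96, 0.33 and 0.72 on the wildtype and 0.96, 0.89, 0.74 and 1.03 on the null arrays. Wildtype replicates 1 and 3 lay below all null arrays, and the shift between genotypes was 0.37 (exact p = 0.114, adjusted 0.471). Without wildtype replicate 2 it was 0.51 with an exact p = 0.0286, the smallest that 3 against 4 arrays can give. For Col8a1 minus Col8a2 the shift was -0.47 (exact p = 0.457), with null replicate 1 at 2.95 and the other null arrays at 0.51 to 1.18. The shifts of the remaining pairs were -0.45 (Col1a1 minus Col1a2), 0.04 (Col5a1 minus Col5a2), 0.42 (Col6a1 minus Col6a2) and -0.31 (Col3a1 minus Col1a1).

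Across the arrays, null replicate 1 stood out, for the collagens and for markers of several cell types. It was the lowest null array for 13 of the 22 tested genes (59.1%), and for 32.0% of all genes. Of the fibrillar genes, 5 of 6 were lowest there among the null arrays. The median deviation of the collagen genes from their mean over the 8 arrays was -0.29 on null replicate 1 and between 0.00 and 0.09 on the other 7 arrays. Over all genes the same median lay between -0.04 and 0.07 on all 8 arrays. The opposite held for 6 of the 22 genes (27.3%), Col8a1 and Col23a1 among them, for which null replicate 1 was the highest null array. It was the highest null array for 17.5% of all genes.

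Of the 10 lists of cell type markers, 7 had their lowest summed level among the null arrays on null replicate 1. Skeletal muscle markers summed to 1222 there and 3035 to 3797 on the other null arrays, tendon markers to 1326 against 1871 to 2218, and endothelial markers to 788 against 998 to 1491. Limb mesenchyme, macrophage, platelet and nerve markers were also lowest there, as were 3 of the 6 lists of partner genes. The part of these markers in the collagen values of null replicate 1 was not tested.

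**Figure D4:**
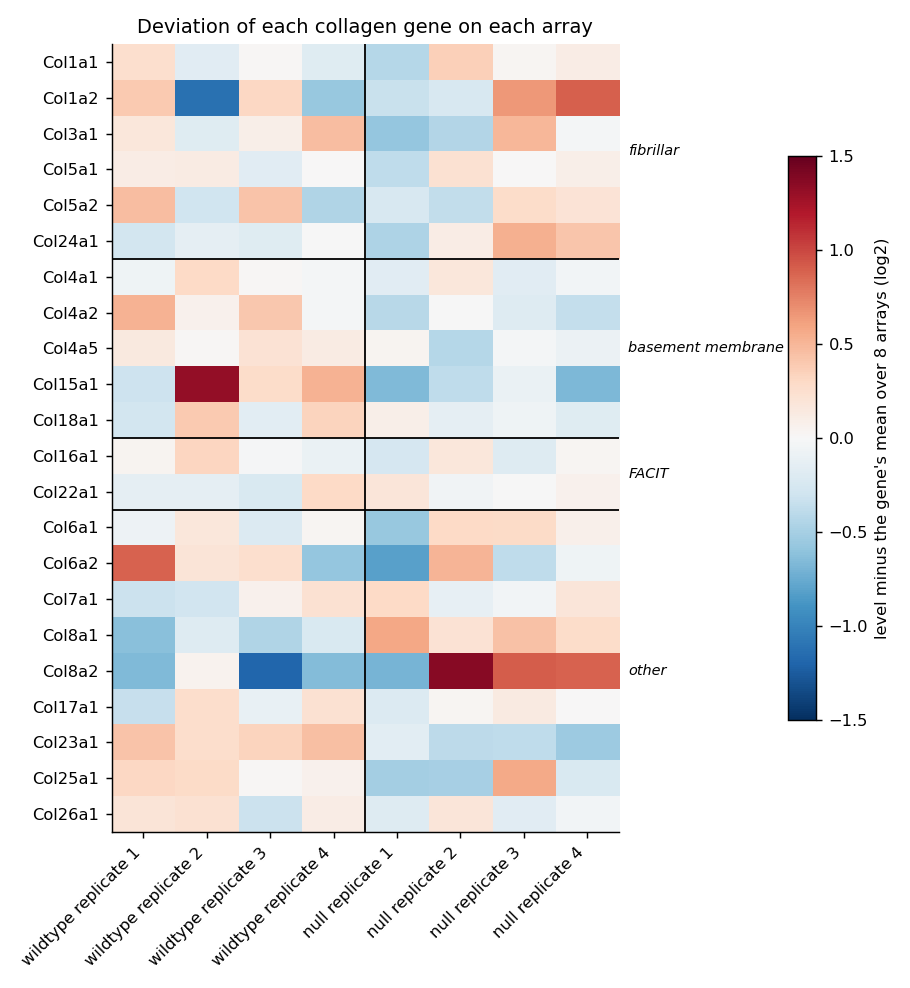
Deviation of each tested collagen gene (rows, by class) from its mean over the 8 arrays, in log2 units, on each array (columns), with red above and blue below the mean. Null replicate 1 is blue for most fibrillar genes, where the class median was -0.40, and red for Col8a1.

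Read at the brightest probe, the cartilage collagens gave differences below 0 for all 7 tested genes, with a median of -0.34. Of these, 0 were called (limma, 3 at an unadjusted p under 0.05). By probe, 11 of 13 were below 0. Col2a1, the fibril collagen of cartilage, differed by -0.63 ± 0.15 (adjusted p = 0.134), Col9a2 by -0.61 ± 0.16 (0.169) and Col27a1 by -0.43 ± 0.15 (0.323). The other probes of Col2a1 gave -0.52 and -0.51, those of Col27a1 0.21 and -0.08, and the other tested probe of Col11a1 0.11. The groups did not overlap for Col9a2 and the brightest probe of Col2a1, 2 of 7 genes, while the other probes of Col2a1 overlapped. Over all tested probes 11.3% had an unadjusted p under 0.05 and 6.29% showed no overlap. Against these, the fibrillar collagens outside cartilage had a median of 0.00 and the basement membrane collagens one of -0.25; the difference between the classes was not tested.

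Enzymes and chaperones that fold and modify collagen chains gave 22 tested genes, none called by limma and 4 at an unadjusted p under 0.05. The share over all tested probes was 11.3%. The groups did not overlap for 4 of the 22 genes, against 6.29% of all tested probes. Of the 22 genes, 19 were below 0, with a median of -0.13. The collagen galactosyltransferase Colgalt2 was at -1.05 ± 0.21 (adjusted p = 0.0663), and the lysyl hydroxylases Plod2 and Plod1 at -0.60 ± 0.14 (0.126) and -0.44 ± 0.14 (0.253). The null arrays lay below all wildtype arrays for each of these 3 genes at the brightest probe. Colgalt2 and Plod2 had 3 tested probes each, and none of the others was called. Of 8 fits with an array left out, Colgalt2 passed in 1, without wildtype replicate 4 (-1.23, adjusted p = 0.0237). Its adjusted p rose to 0.195 in the others. Of 6 tested genes for procollagen processing and cross-linking none was called (1 at an unadjusted p under 0.05). The proteinase enhancer Pcolce2 was at 0.57 ± 0.17 (adjusted p = 0.250), the cross-linking oxidase Lox at 0.72 ± 0.46 (0.603) and Bmp1 at -0.19 ± 0.13 (0.633). Lox read 6.96 on null replicate 1 and 8.95, 8.97 and 9.41 on null replicates 2, 3 and 4, against 7.57 to 8.04 on wildtype arrays. Without null replicate 1, the array on which Col8a2 was also low, Lox was at 1.26 with an adjusted p = 0.0187. That was 1 of 8 fits with an array left out, and the adjusted p reached 0.862 in the others. In the 10 other settings Lox was called in 0.

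Of 5 tested collagen receptors, 1 was called, the platelet receptor Gp6. It was detected on all 4 wildtype and no null arrays, at least 1.37-fold lower in null cells (limma, adjusted p = 0.00412), beside the platelet markers given above. It passed the detection filter only through the wildtype arrays, so its null level is known only as not above background. The mesenchymal receptors Ddr2 (0.35 ± 0.20, adjusted p = 0.553) and Itga11 (-0.33 ± 0.19, 0.568) did not pass. Of 12 tested partners in the basement membrane none was called by limma or had an unadjusted p under 0.05. Of these, 3 were above and 9 below 0, with a median of -0.08. The smallest p belonged to Hspg2 (perlecan) at -0.25, and the laminin chains Lamb2 at -0.24 and Lama1 at -0.22. The widest differences were above 0, for Lama2 (0.37) and Fras1 (0.33). Of 8 tested proteins that organise fibrils none was called by limma or had an unadjusted p under 0.05, with Tgfbi at -0.27, Thbs2 at 0.74 and Tnc at -0.37. Thbs2 was called without null replicate 1 (1.14, adjusted p = 0.0119), 1 of 8 fits with an array left out. The adjusted p reached 0.772 in the others, and Thbs2 was called in 0 of 10 other settings.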

How the data were processed

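The study's methods describe EGFP-sorted cells of E12.5 hindlimbs whose RNA was labelled with a TargetAmp-Nano kit and hybridized to Illumina MouseWG-6 v2.0 BeadChips. The authors used GenomeStudio, with no version stated in the sources read, to subtract background and export an intensity per probe, each with a deposited detection score that rose with intensity, and 1 minus that score was taken as the detection p. A separate deposited log2 table gave the probe names: its rows were matched to the intensities by value (tolerance 0.0001), which placed 35454 of 45281 probes on exactly 1 row. The other 9827 were detected on no array.

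Intensities were corrected by normexp with negative controls inferred from the detection p (offset 16), quantile normalized and log2 transformed (neqc, limma 3.58.1, R 4.3.3). Probes detected (p under 0.05) on 4 or more of the 8 arrays were tested with lmFit and eBayes (two-sided, no covariate) and Benjamini-Hochberg adjustment over all 19568. A gene was read at its brightest tested probe. Chain pairs were compared by exact permutation over 70 labelings (scipy 1.17.1). On simulated arrays, on which 21099 probes were tested, the same steps recovered 14.9%, 53.7% and 86.4% of 1.5-, 2- and 4-fold changes, and 4 of 107 calls were wrong. The changes were placed only in detected probes above an intensity cutoff, and noise was drawn independently for each probe and array. These rates therefore do not cover dimmer probes or shifts shared by the genes of an array.

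Values on every array were set out for called members and, in each class, for the 3 members with the smallest p and the brightest one. From each list of partner genes, called genes and up to 3 with the smallest p were named. The members and lists were chosen with earlier results of these data known. Groups and replicate numbers came from the sample titles. The alternatives covered background correction, normalization, the deposited log2 table, the detection filter, array weights, a replicate block, the probe read per gene and each array left out in turn.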

Additional observations from a re-analysis of the deposited data

Results flagged for a closer look

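The 33 tested collagen probes were checked in each genotype, 66 groups of 4 arrays, for an array whose gap to its nearest neighbour took up most of the group's range. One stood out (1.52% of the groups, where about 1 in 20 is found by chance). On the dimmer probe of Col18a1, wildtype replicate 4 read 5.97 and the other wildtype arrays 6.09 to 6.11, a gap of 0.865 of the range.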

How the results depend on the processing

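The single collagen call became 0 under scaling by median absolute deviation, in the deposited log2 table and with the replicate block, and 2 (Col23a1 and Col8a1) with cyclic loess, an offset of 50 and array weights; leaving out 1 array gave 0 to 2 called collagen probes and as many genes, the 2 being Col23a1 and Col8a2 without null replicate 1. Over the whole array 10, 65, 97 and 267 probes were called with scaling by median absolute deviation, the deposited table, detection on all 8 arrays and array weights, and 59 to 150 without 1 array. The cause was not tested. Same-numbered arrays deviated together unevenly (r = 0.07, 0.46, 0.26 and -0.31), so the numbers were not taken as pairs. The replicate block moved the calls over the array from 149 to 108. The slide was not named in the headers, so it was not run as a block.

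Of the 33 collagen probes, 18 kept their sign in every fit. Under scaling by median absolute deviation the sign turned for Col4a1 (0.048), Col5a1 (0.23), Col5a2 (0.091), Col16a1 (0.066), Col17a1 (0.0026 and 0.045), Col26a1 (0.11) and the dimmer probe of Col6a2 (0.024). In the deposited table it turned for Col1a1 (-0.061), Col6a1 (-0.039 and -0.043) and dimmer probes of Col5a2 (-0.068) and Col24a1 (-0.022). With cyclic loess it turned for Col17a1 (0.065 and 0.050) and the dimmer probe of Col6a2 (0.070), and without normexp for the dimmer probe of Col17a1 (0.0086). Array weights turned Col1a1 (-0.019), Col17a1 (0.073) and dimmer probes of Col6a1 (-0.11), Col6a2 (0.091) and Col26a1 (0.0041), and averaging the probes turned Col5a2 (0.025). Among partners, Bmp1 turned under scaling by median absolute deviation (0.040). None of these was called in any fit. Array weights brought Col2a1, Plod2 and Colgalt2 past the threshold (adjusted p = 0.0436, 0.0487 and 0.00945).

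Leaving out 1 array gave ranges that crossed 0 for Col1a1 (-0.073 to 0.19), Col5a1 (-0.11 to 0.088), Col5a2 (-0.23 to 0.072), Col6a1 (-0.048 to 0.24) and Col17a1 (-0.13 to 0.066), and for dimmer probes of Col5a2 (-0.17 to 0.16 and -0.11 to 0.30), Col6a1 (-0.18 to 0.20), Col6a2 (-0.13 to 0.079), Col17a1 (-0.080 to 0.083), Col24a1 (-0.069 to 0.22) and Col26a1 (-0.21 to 0.057). The class medians moved past their spread between arrays only for FACIT (0.089) and all members (0.079) under scaling by median absolute deviation and for the cartilage collagens with detection on all 8 arrays (-0.52) or probes averaged (-0.13). Col5a1 minus Col5a2 ran from -0.16 to 0.20 and Col4a1 minus Col4a2 from 0.24 to 0.51 without 1 array. With 4 arrays a genotype and dim probes near background, small differences could not be resolved.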
